A study of Mus musculus with 4 samples.

Results

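The genes described here are 9 genes that are widely used to recognise or characterise regulatory T cells: Foxp3, Il2ra, Ikzf2, Ccr8, Itgae, Izumo1r, Klrg1, Capg and Il10. They were taken by symbol from the gene table of a single-cell RNA-seq series of mouse tumours, in which each of the 9 matched 1 row of 27998. They were followed across the authors' clusters of CD45+ cells, across the authors' separate clusters of lymphoid cells and across the 4 libraries. The choice used gene names and no measured value, although earlier results of these data were known when it was made.

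Regulatory T cells are CD4 T cells that restrain other immune cells, and the forkhead transcription factor Foxp3 defines the lineage. They carry the high-affinity IL-2 receptor chain encoded by Il2ra (CD25), and most that arise in the thymus express Ikzf2 (Helios). In tumours these cells are often activated, and the antibody target CTLA-4 is abundant on their surface.

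The cells came from tumours transplanted into wild-type 129S6 mice. Each of the 4 groups was 1 library: control mice given a rat IgG2a isotype antibody, mice given anti-PD-1 (clone RMP1-14), mice given anti-CTLA-4 (clone 9D9), and mice given both antibodies, called the combination. All received 200 µg intraperitoneally on days 3, 6 and 9 after transplantation. Tumours were digested with collagenase and sorted for live CD45+ cells (CD45 marks all leukocytes), and 3′ ends of transcripts were counted by unique molecular identifier (UMI) in droplets. How many mice went into a library, and which tumour line was used, is not stated in the labels. Where 4 values follow one another, their order is control, PD-1 antibody, CTLA-4 antibody, combination.

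With 1 library per group, treatment and library cannot be told apart, and no difference between groups could be tested. Each value is therefore given with a 95% interval that covers counting error only. The 4 libraries held 3336 to 3945 listed cells with median depths of 2549 to 2991 UMIs per cell, 14491 cells in all. Of the distinct barcode sequences, 110 occurred in more than 1 library, and 3 of the Foxp3-positive T cells carried such a barcode. Levels are counts per 1e+06 UMIs (CPM), the summed UMIs of the gene in a set of cells divided by all UMIs of that set.

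A pair of cell sets carries most of the results. The first is cluster 10 of the CD45 table, 403 cells whose leading genes by fold over all other cells were Foxp3, Izumo1r, Ikzf2, Tnfrsf4, Tnfrsf9, Il2ra, Ctla4, Icos, Tnfrsf18 and Cd27. It is called regulatory T cell-like, by a marker list that shares genes with the 9 described here. It was not purely CD4 by its markers. Its CD8 genes summed to 163, 133, 422 and 142 CPM, against 146, 128, 138 and 184 CPM for Cd4 and Cd40lg. The second is cluster 7 of the lymphoid table, 325 cells, which holds 281 of the cluster 10 cells. Clusters 3, 6, 8, 9 and 10 of the CD45 table are T cell-like (3829 cells), cluster 5 is NK cell-like, clusters 1, 2, 4, 7 and 15 are macrophage-like, with 15 led by cell-cycle genes and 7 by interferon-response genes, and cluster 14 is unnamed and led by granzyme genes. By mean level over the other T cell-like cells, 6 of the 9 genes were at least 2-fold higher in cluster 10 (8.23% of all genes) and 9 in lymphoid cluster 7 (21.1%), with none 2-fold lower (4.34% and 4.31%). The authors' clusters were built from these same counts, so a gene's level in 1 cluster against the others is a description without a test.

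RefSeq promoter windows (GRCm38.p6, 250 bases before to 50 after an annotated start) were at hand for 5 of the 9 genes: Foxp3 with 2 windows, and Il2ra, Ccr8, Izumo1r and Capg. Ikzf2, Itgae, Klrg1 and Il10 had no entry. The Foxp3 and Izumo1r windows are shown because Foxp3 defines the cells and Izumo1r had the highest ratio of Foxp3-positive over Foxp3-negative T cells when each ranked gene is taken at its weakest library. They are written 5′ to 3′ in the direction of transcription, and capitals mark matches to 5 motifs searched on both strands.
Foxp3, first window, chrX:7579426-7579725, plus strand: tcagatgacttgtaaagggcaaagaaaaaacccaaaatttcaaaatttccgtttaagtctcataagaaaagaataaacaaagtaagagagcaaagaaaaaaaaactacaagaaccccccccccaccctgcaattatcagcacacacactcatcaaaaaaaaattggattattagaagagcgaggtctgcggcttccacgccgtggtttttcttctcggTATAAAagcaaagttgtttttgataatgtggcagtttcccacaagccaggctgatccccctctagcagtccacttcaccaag
Foxp3, second window, chrX:7580233-7580532, plus strand: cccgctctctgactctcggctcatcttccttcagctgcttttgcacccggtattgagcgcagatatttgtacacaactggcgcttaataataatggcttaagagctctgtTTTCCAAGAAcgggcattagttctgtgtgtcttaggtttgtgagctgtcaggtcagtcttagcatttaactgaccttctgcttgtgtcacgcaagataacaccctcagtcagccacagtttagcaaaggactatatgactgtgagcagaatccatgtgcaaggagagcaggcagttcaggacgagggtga
Izumo1r, chr9:14903718-14904017, minus strand: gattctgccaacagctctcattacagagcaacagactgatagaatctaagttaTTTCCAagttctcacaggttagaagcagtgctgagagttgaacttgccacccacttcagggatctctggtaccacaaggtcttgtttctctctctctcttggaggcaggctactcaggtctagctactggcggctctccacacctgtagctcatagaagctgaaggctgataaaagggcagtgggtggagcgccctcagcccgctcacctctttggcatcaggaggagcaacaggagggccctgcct
The forkhead motif searched was GTAAACA. That of STAT factors was TTCNNNGAA and that of NFAT factors TGGAAA. The TATA box was searched as TATAAA and the AP-1 motif as TGANTCA. In the first Foxp3 window the capitals are TATAAA, 32 bases before the start. In the second they are the STAT match TTCCAAGAA, 139 bases before the start, and a TGGAAA match on the other strand that overlaps it. The Izumo1r window held 1 TGGAAA match, 197 bases before the start, and the windows of Il2ra, Ccr8 and Capg held none of the 5 motifs. Of 32851 windows of all genes, 8.30% held the STAT motif, 21.4% the NFAT motif, 13.6% the TATA motif, 7.81% the AP-1 motif and 3.65% the forkhead motif.

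Foxp3 (ENSMUSG00000039521; mm10 chromosome X, 7573644 to 7595245, plus strand) was sparse: 238 UMIs in 172 of the 14491 cells. Of these UMIs, 89.1% lay in the T cell-like clusters and 66.0% in cluster 10 alone. In cluster 10 the level was 226, 133, 119 and 142 CPM in the 4 libraries, a mean of 155 ± 48.2 (SD over the 4 libraries, which differ in treatment). The next clusters were 16 (14.9 ± 10.7 CPM), 9 (9.37 ± 8.72 CPM) and 3 (6.13 ± 9.73 CPM), whose ranges over libraries overlapped one another and did not reach that of cluster 10. Genes that overlap Foxp3 in the GENCODE annotation had few UMIs in cluster 10: 19 for Ccdc22, 7 for Ppp1r3f and 4 for the same-strand transcript listed as Ppp1r3fos.

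**Figure D1:**
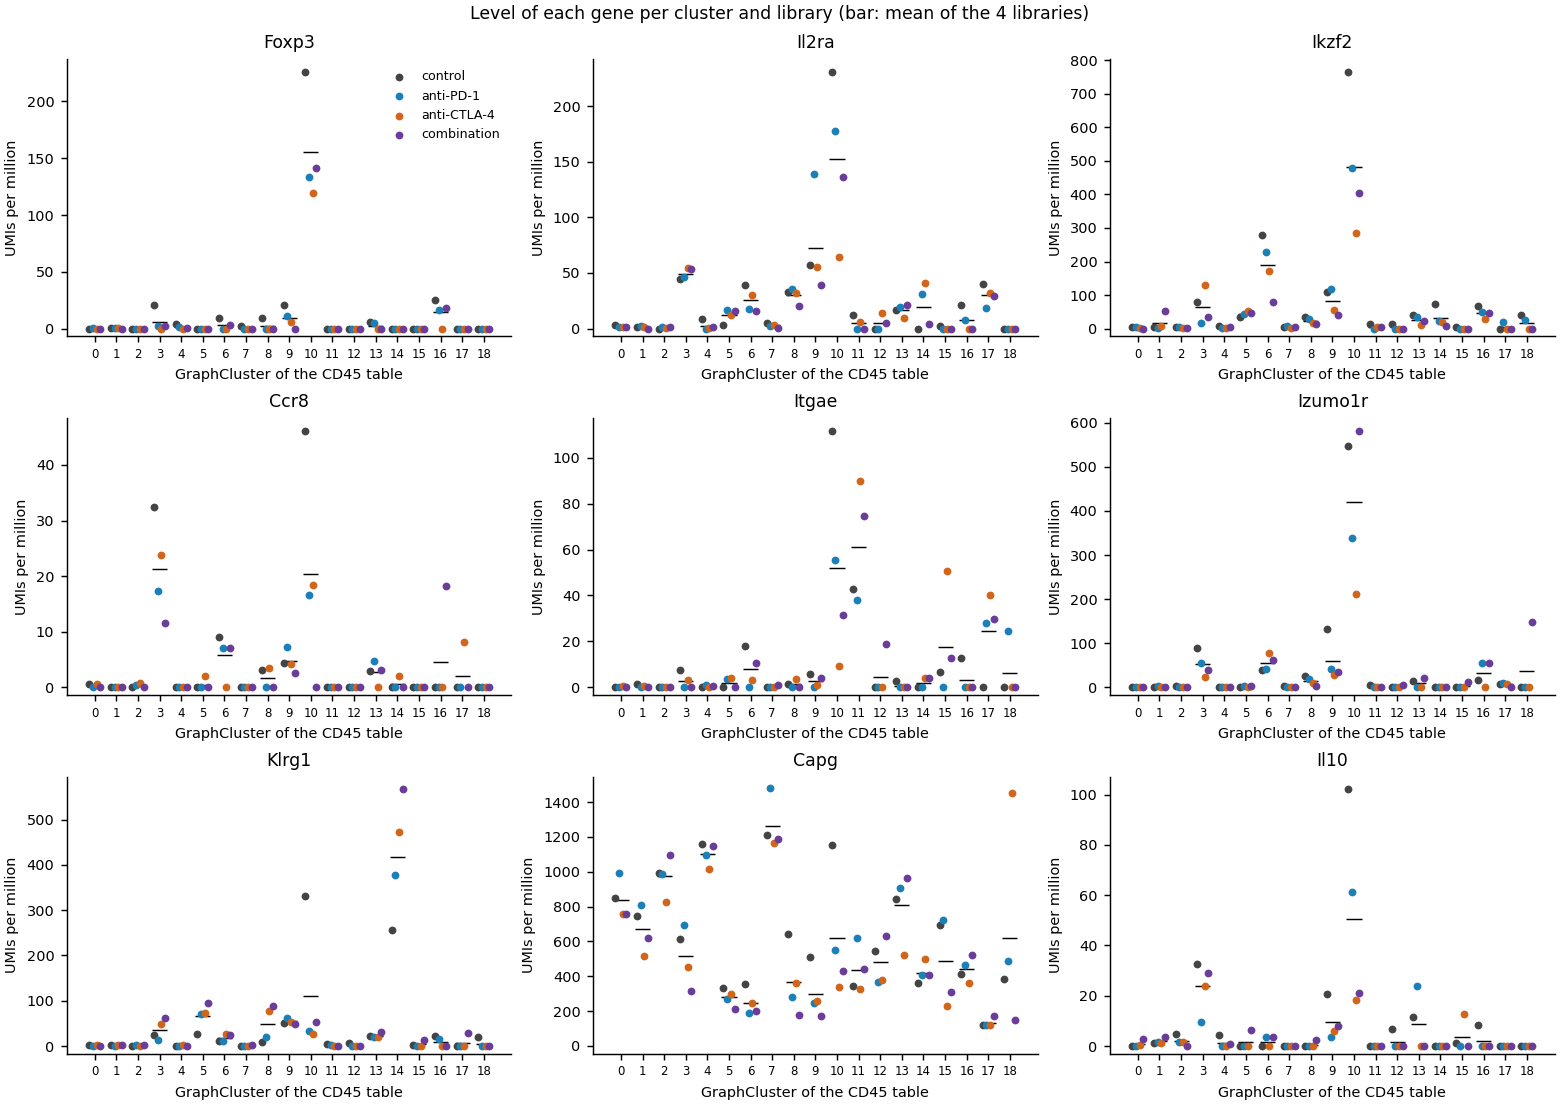
Level of each of the 9 genes (CPM, linear axis) in the 19 clusters of the CD45 table; each point is 1 library and each bar the mean of the 4. Foxp3, Ikzf2 and Izumo1r peak in cluster 10 without overlap with the next cluster, Klrg1 is highest in cluster 14, Itgae overlaps between clusters 11 and 10, and Capg is highest in clusters 7 and 4.

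Foxp3 UMIs in cells of other types give a background for such shares. Whether they came from free RNA or mixed droplets was not tested. Among macrophage-like cells, which should lack Foxp3, 12 of 6056 cells held a Foxp3 UMI (0.198%, exact binomial interval 0.102% to 0.346%) at a median of 3595 UMIs per cell. Among the NK cell-like cells of cluster 5 the count was 0 of 993, which allows a share of up to 0.302% (3 counts of the total; exact binomial limit 0.371%), at a median of 1611 UMIs. In cluster 16, led by Siglech, 6 of 157 cells held a Foxp3 UMI. All 6 also held UMIs of Siglech, a plasmacytoid dendritic cell gene, of a Cd3 gene and of Ikzf2, and their median depth was 4877 UMIs against 3216 for the whole cluster.

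In the T cell-like clusters 151 cells held a Foxp3 UMI at a median of 1859 UMIs per cell. A Cd3 gene was detected in 98.0% of them, Cd4 in 29.8% and Cd8a or Cd8b1 in 13.2%. Of the 151 cells, 113 lay in cluster 10, 17 in the cycling cluster 9, 13 in the CD4 cluster 3, 5 in cluster 6 and 3 in cluster 8. By the lymphoid table, 123 of them (81.5%) lay in lymphoid cluster 7.

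The share of Foxp3-positive cells among T cell-like cells was lower in each treated library than in the control library. The control library had 95 such cells of 1107 (8.58%, interval 7.0% to 10.4%). Anti-PD-1 had 23 of 695 (3.31%, 2.11% to 4.92%), anti-CTLA-4 had 13 of 771 (1.69%, 0.901% to 2.87%), and in the combination there were 20 of 1256 (1.59%, 0.975% to 2.45%). The control interval lay above all 3 others, and that of anti-PD-1 overlapped both of the remaining ones. The log2 ratios to control were −1.37 (−2.10 to −0.71), −2.35 (−3.31 to −1.51) and −2.43 (−3.20 to −1.72).

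Drawing each cell down to 1000 UMIs, which left out 2, 69, 39 and 150 shallower T cell-like cells in that order of libraries, gave shares of 5.07%, 1.60%, 0.683% and 0.814%. The order of control above all treated libraries held at equal depth. The same share among macrophage-like cells was 0.394%, 0.239%, 0.0709% and 0.107% before thinning. Every T cell share was above it.

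By cluster, the control library was again the highest. The combination stood above anti-CTLA-4 by cluster share, with overlapping intervals, and below it by Foxp3-positive share (1.59% against 1.69%). Cluster 10 made up 16.4%, 11.8%, 6.23% and 7.25% of T cell-like cells, or 182, 82, 48 and 91 cells. The intervals were 14.3% to 18.8%, 9.49% to 14.4%, 4.63% to 8.17% and 5.87% to 8.82%. Those of control and anti-PD-1 overlapped slightly. Lymphoid cluster 7 made up 12.8%, 5.14%, 2.64% and 4.06% of all lymphoid-table cells, or 185, 53, 28 and 59 cells. Here the intervals were 11.1% to 14.7%, 3.87% to 6.67%, 1.76% to 3.80% and 3.11% to 5.21%. Over one denominator, all listed cells, the log2 ratios to control were −1.0, −1.74 and −1.06 for cluster 10 and −1.65, −2.54 and −1.71 for lymphoid cluster 7. Their intervals were −1.39 to −0.62, −2.23 to −1.27 and −1.44 to −0.69 for cluster 10. For lymphoid cluster 7 they were −2.12 to −1.21, −3.17 to −1.96 and −2.15 to −1.28.

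**Figure D2:**
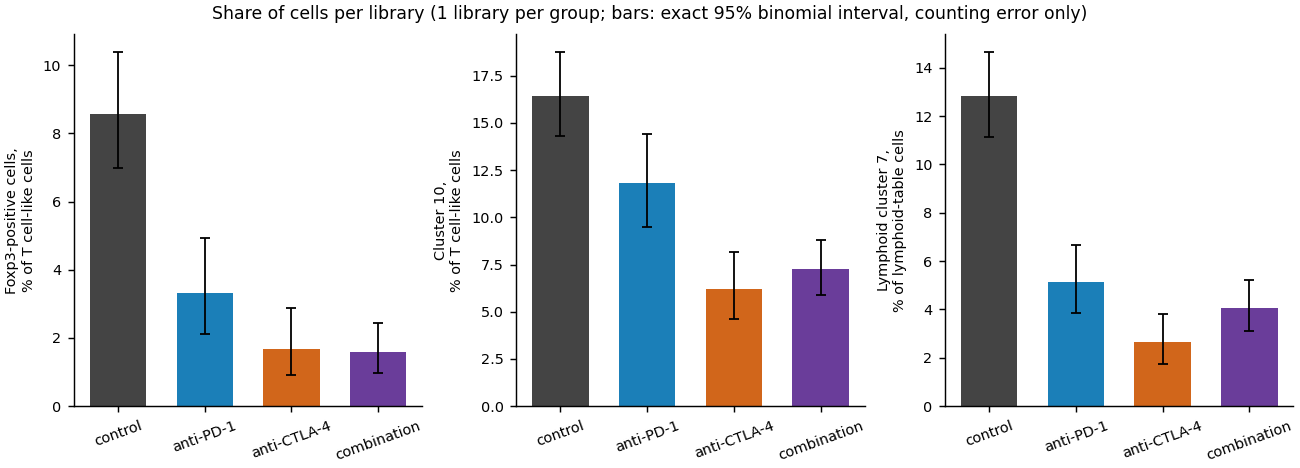
Share of cells per library, in percent: Foxp3-positive cells and cluster 10 among T cell-like cells, and lymphoid cluster 7 among lymphoid-table cells; error bars are exact 95% binomial intervals and cover counting error. The control library is the highest in all 3 panels, at 8.58%, 16.4% and 12.8%.

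The overlap of the 2 groupings differed between libraries. Lymphoid cluster 7 held 157 of the 182 cluster 10 cells of the control library (86.3%), and 57.3%, 50% and 58.2% of those of the treated libraries. Lymphoid cluster 11, in which 2 of 95 cells held a Foxp3 UMI, held 9.89%, 28.0%, 29.2% and 19.8% of cluster 10. The cluster 10 cells outside lymphoid cluster 7 numbered 25, 35, 24 and 38 and held 1, 1, 1 and 0 Foxp3 UMIs. In lymphoid cluster 11 the summed level of the CD8 genes was 325 to 1735 CPM, against 24.8 to 167 CPM in lymphoid cluster 7, and that of the ILC2 marker list reached 1152 CPM with anti-PD-1.

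Over all T cell-like cells together, most of the 9 genes were lower in each treated library. With anti-PD-1, 5 of 9 were at least 2-fold lower, beside 3.29% of all genes measured. It was 6 of 9 beside 4.99% under anti-CTLA-4, and 6 of 9 beside 4.07% in the combination. In none of the 3 was a member 2-fold higher, beside 3.30%, 3.71% and 3.03% of all genes. The 3 comparisons share the control library.

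In cluster 10 the counts were 3 of 9 (10.5% of all genes), 8 of 9 (15%) and 4 of the 8 genes measured (8.86%), and none was 2-fold higher (7.44%, 8.90% and 6.14% of all genes). In lymphoid cluster 7 they were 1 of 9 (10.3%), 6 of 9 (16.2%) and 4 of 9 (13.2%), and 0, 0 and 1 were at least 2-fold higher (7.46%, 9.89% and 8.0% of all genes). In the T cell-like clusters other than 10, 2 of 8 (3.17%), 3 of 9 (4.24%) and 5 of 9 (3.88%) were at least 2-fold lower, and 0, 0 and 1, Klrg1, higher (3.50%, 3.87% and 3.44%). These counts take a gene with at least 20 UMIs over the 2 libraries and add 0.5 counts to each side. Some members passed that filter mainly through their control UMIs. In lymphoid cluster 7 under anti-CTLA-4, Ccr8 and Il10 had no UMI, Klrg1 had 1 and Itgae 2. In cluster 10 under anti-CTLA-4, Itgae had 1 UMI, Ccr8 and Il10 had 2 each and Klrg1 had 3. The added 0.5 counts set the ratio where a member had no UMI. The median log2 ratio of the 9 genes in lymphoid cluster 7 was 0.27, −1.07 and −0.88, against 0.01, −0.02 and −0.02 over all genes measured.

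**Figure D3:**
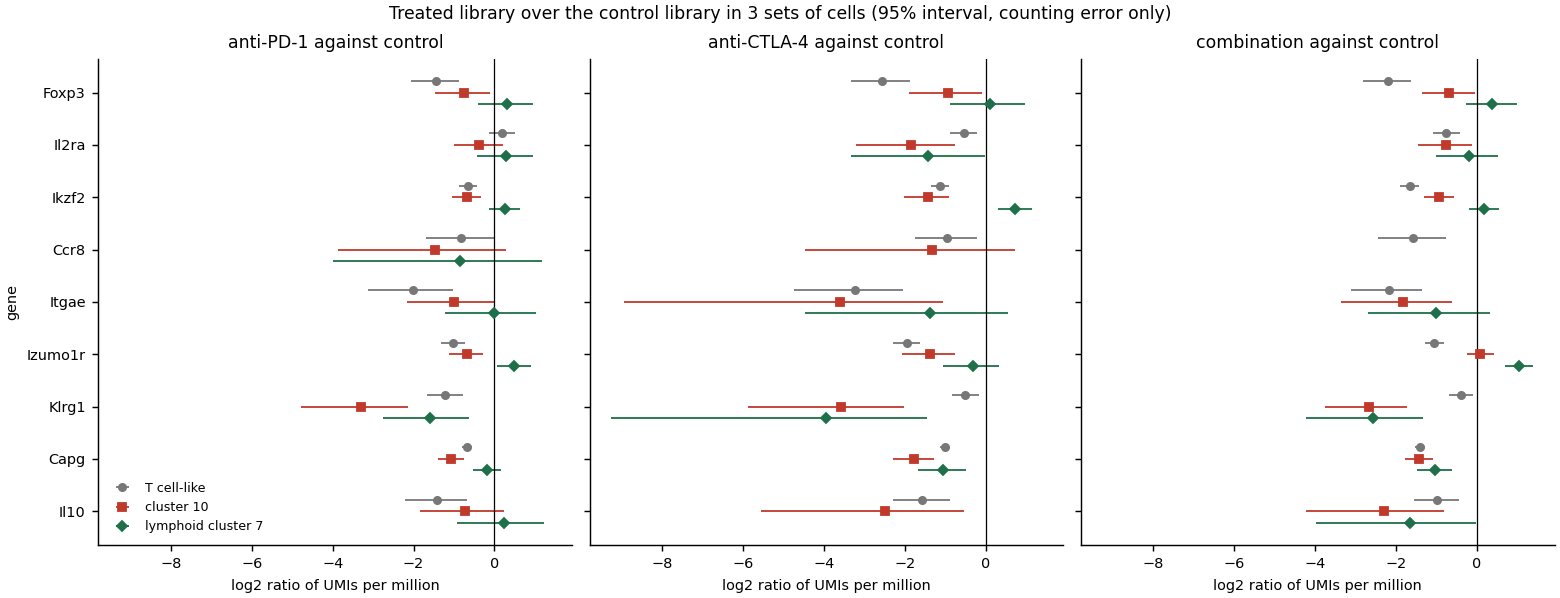
Log2 ratio of each treated library to the control library for the 9 genes in all T cell-like cells, in cluster 10 and in lymphoid cluster 7; bars are 95% intervals for counting error, genes with under 20 UMIs or with a 0 on 1 side are left out. Foxp3 lies below 0 in T cell-like cells and cluster 10 and slightly above 0 in lymphoid cluster 7, while Klrg1 lies below 0 in all 3 sets of cells.

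In lymphoid cluster 7 the Foxp3 level was 265, 327, 285 and 347 CPM, from 107, 24, 12 and 28 UMIs. The log2 ratios were 0.30 (−0.40 to 0.95), 0.11 (−0.89 to 0.97) and 0.39 (−0.27 to 1.00), all with intervals that hold 0. In cluster 10 they were −0.76 (−1.47 to −0.10), −0.92 (−1.88 to −0.08) and −0.67 (−1.35 to −0.04). The cells shared by both groupings held all but 3 of the cluster 10 Foxp3 UMIs. Fewer cells of a type and less RNA per cell cannot be told apart in the summed T cell-like levels.

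Ikzf2 encodes Helios, an Ikaros-family transcription factor (ENSMUSG00000025997; mm10 chromosome 1, 69531214 to 69687245, minus strand). Its level in lymphoid cluster 7 was 842, 1008, 1403 and 954 CPM. The intervals for anti-PD-1 and the combination held 0. The high anti-CTLA-4 value rested on 1 cell, which held 32 of the 59 UMIs, and without the top cell of each library the log2 ratio went from 0.74 to −0.057. Across clusters Ikzf2 was highest in cluster 10 (483 ± 205 CPM) and then in cluster 6 (190 ± 85.7 CPM), and within the lymphoid table cluster 7 (1052 ± 244 CPM) and cluster 6 (338 ± 50.6 CPM) did not overlap each other or the next cluster. In cluster 6 of the CD45 table it was 279, 227, 173 and 78.7 CPM, lower in the combination by a log2 ratio of −1.83 (−2.37 to −1.30). In cluster 6 of the lymphoid table, numbered separately, it was 366, 395, 300 and 292 CPM.

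Il2ra (ENSMUSG00000026770; mm10 chromosome 2, 11642807 to 11693193, plus strand) encodes the IL-2 receptor alpha chain, which activated conventional T cells also express. In lymphoid cluster 7 it was 255, 313, 95.1 and 223 CPM. The anti-CTLA-4 library was the low one, by a log2 ratio of −1.42 (−3.33 to −0.02), from 4 UMIs. Across CD45 clusters it was 152 ± 70.3 CPM in cluster 10, 72.7 ± 45.0 in cluster 9 and 49.5 ± 4.96 in cluster 3, with overlapping ranges between 10 and 9 and between 9 and 3. In cluster 9 it was 139 CPM with anti-PD-1 against 57.4 in control, a log2 ratio of 1.28 (0.70 to 1.87). There 1 cell held 32 of the 76 UMIs, and without the top cell of each library the ratio was 0.74. Over all T cell-like cells the anti-PD-1 level was 81.9 CPM against 72.2 CPM in control, a log2 ratio of 0.18 that was −0.13 without the top cells.

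Izumo1r encodes folate receptor 4, a surface protein of regulatory and some activated CD4 T cells (ENSMUSG00000031933; mm10 chromosome 9, 14885814 to 14903949, minus strand). Of its 908 UMIs, 93.2% lay in T cell-like clusters and 46.3% in cluster 10. Per library it was 547, 339, 211 and 582 CPM in cluster 10 and 592, 831, 476 and 1227 CPM in lymphoid cluster 7. The combination was the highest library there, with a log2 ratio of 1.05 (0.70 to 1.40), and anti-PD-1 was higher by 0.49 (0.06 to 0.90). Summed over the T cell-like clusters other than 10 it was 77.2, 43.0, 30.6 and 37.0 CPM, with log2 ratios of −0.84, −1.34 and −1.06 and all intervals below 0. Among those clusters, number 6 was not lower in any treated library, at 39.0, 42.6, 78.0 and 61.2 CPM with intervals that held 0.

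Klrg1 encodes an inhibitory lectin-like receptor of terminally differentiated T cells, NK cells and a subset of activated regulatory T cells (ENSMUSG00000030114; mm10 chromosome 6, 122270596 to 122282882, minus strand). In lymphoid cluster 7 it was 369 CPM in control, from 149 UMIs in 74 of 185 cells. The treated libraries stood at 123, 23.8 and 62.0 CPM, from 9, 1 and 5 UMIs. The log2 ratios were −1.59 (−2.75 to −0.63), −3.96 (−9.27 to −1.45) and −2.57 (−4.22 to −1.32). No single cell carried the control level, since the top cell held 8 of the 149 UMIs.

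In clusters 5, 8 and 14 Klrg1 was higher in the treated libraries. In cluster 14, where it was highest of all (418 ± 133 CPM), it was 255, 378, 472 and 567 CPM. In the NK cell-like cluster 5 it was 27.5, 70.2, 72.4 and 94.6 CPM. In cluster 8, whose leading genes were Cd8b1 and Cd8a, it was 7.82, 19.5, 77.7 and 88.3 CPM, and there the anti-PD-1 interval (−0.80 to 3.44 on the log2 scale) held 0. In clusters 3 and 6 the anti-PD-1 library was below control (23.6, 13.5, 47.7 and 61.1 CPM in cluster 3), and in cluster 9 the 4 values lay between 49.7 and 62.2 CPM. The control library was thus the highest in lymphoid cluster 7 and cluster 10 and the lowest in clusters 5, 8 and 14. Whether the direction differs between these cells was not tested, with 1 library per group.

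**Figure D4:**
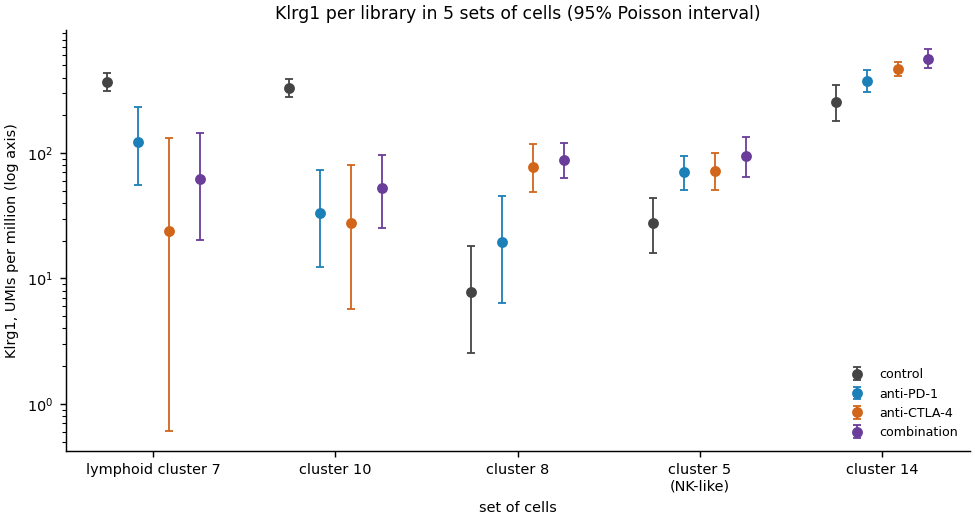
Klrg1 level per library (CPM, log axis) in 5 sets of cells, with 95% Poisson intervals. The control library is the highest in lymphoid cluster 7 (369) and cluster 10 (330) and the lowest in clusters 8 (7.82), 5 (27.5) and 14 (255).

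Itgae encodes the alpha E integrin chain CD103, which binds E-cadherin (ENSMUSG00000005947; mm10 chromosome 11, 73090583 to 73147446, plus strand). Its level was 61.3 ± 25 CPM in cluster 11, led by Plet1, Timd4 and Cd24a, and 52.0 ± 44.1 CPM in cluster 10, with overlapping ranges. Within the lymphoid table, cluster 7 (89.0 ± 39.9 CPM) stood clear of the next cluster (7.31 ± 5.65 CPM). Its values there were 124, 123, 47.6 and 62.0 CPM from 50, 9, 2 and 5 UMIs. The 3 intervals of the ratios to control all held 0.

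Il10, an anti-inflammatory cytokine, had 206 UMIs in 109 cells (ENSMUSG00000016529; mm10 chromosome 1, 131019845 to 131024974, plus strand). It was 50.6 ± 39.5 CPM in cluster 10 and 23.8 ± 10.1 CPM in the CD4 cluster 3, with overlapping ranges. In lymphoid cluster 7 the 4 libraries held 47, 10, 0 and 3 UMIs, or 116, 136, 0 and 37.2 CPM. In the anti-PD-1 library 1 cell held 7 of the 10 UMIs, and without the top cell of each library its log2 ratio to control went from 0.23 to −1.14. Against the 3 counts that a count of 0 allows, the anti-CTLA-4 level was at least 1.63-fold lower than in control, and the combination ratio was −1.65 on the log2 scale (−3.97 to −0.01).

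Ccr8, a chemokine receptor of tumour regulatory T cells, was the rarest of the 9 with 120 UMIs, 90% of them in T cell-like clusters (ENSMUSG00000042262; mm10 chromosome 9, 120092114 to 120094906, plus strand). Its level was 21.3 ± 8.95 CPM in cluster 3 and 20.3 ± 19.1 CPM in cluster 10, with overlapping ranges. In cluster 10 the libraries held 19, 3, 2 and 0 UMIs. The combination was at least 2.93-fold lower than control, and the intervals of the other 2 ratios held 0. That bound also counts the combination cells outside lymphoid cluster 7, which held no Foxp3 UMI. In lymphoid cluster 7 the libraries held 20, 2, 0 and 0 Ccr8 UMIs, or 49.5, 27.2, 0 and 0 CPM.

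Capg, an actin-capping protein of myeloid cells and effector T cells, was found mostly outside T cells (ENSMUSG00000056737; mm10 chromosome 6, 72544391 to 72562983, plus strand). Of its 34707 UMIs, 61.2% lay in macrophage-like clusters and 2.00% in cluster 10, and its highest levels were in clusters 7 (1260 ± 147 CPM) and 4 (1104 ± 64.6 CPM). In lymphoid cluster 7 it was 1282, 1130, 618 and 632 CPM. The log2 ratios were −0.18 (−0.53 to 0.15), −1.05 (−1.68 to −0.48) and −1.02 (−1.47 to −0.60). Capg was also lower in the treated libraries in cluster 8 (641, 281, 360 and 179 CPM) and cluster 9 (513, 245, 256 and 171 CPM), and in clusters 5 and 6. In cluster 3 it was slightly higher with anti-PD-1 (617, 695, 452 and 313 CPM), from 418 UMIs in control and 361 with anti-PD-1. In cluster 14 it was 360, 405, 500 and 406 CPM, from 55, 103, 243 and 96 UMIs. The values of these clusters are given without intervals, and small differences among them may be counting error.

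In lymphoid cluster 7, macrophage RNA was also lower in the treated libraries, but in other clusters it did not always follow Capg. The macrophage list summed to 2848, 4957, 2372 and 3214 CPM in cluster 8 and to 1984, 1902, 1206 and 1300 CPM in cluster 9. In cluster 10 it summed to 2437, 790, 449 and 2423 CPM, where Capg was 1154, 550, 339 and 430 CPM. All 7 genes of the macrophage list were detected in lymphoid cluster 7, with a summed level of 2607 CPM in control against 262 to 912 CPM in the treated libraries, and Lyz2 alone at 1471 CPM against 340, 119 and 273. Scaled by the macrophage-like cells of the same library, 5 macrophage genes stood at 7.69% of their macrophage level in the control cells of lymphoid cluster 7, and Capg at that share would be 61.6 CPM of the 1282 measured. The same figures were 29.7, 4.88 and 21.5 CPM in the treated libraries. This scaling takes the macrophage-like clusters together, although their mean Capg level ran from 489 CPM in cluster 15 to 1260 CPM in cluster 7. Whether macrophage RNA contributed to the Capg differences was not tested. Without cells holding UMIs of 2 or more of those macrophage genes, all 24 ratios of the 9 genes computed in lymphoid cluster 7 stayed within their main intervals.

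Within lymphoid cluster 7, no difference in detection of the other 8 genes between Foxp3-positive and Foxp3-negative cells was resolved beyond counting error. There, 123 cells held a Foxp3 UMI and 202 did not. Izumo1r was detected in 56.9% of both groups, Ikzf2 in 65% and 69.8%, Il2ra in 35.8% and 30.7% and Klrg1 in 32.5% and 22.3%. All 8 odds ratios, pooled over libraries by the Mantel-Haenszel method, had intervals that held 1, with and without thinning to 1000 UMIs. The intervals were wide, such as 0.83 to 2.44 around 1.43 for Klrg1, which before thinning was higher in the positive cells of all 4 libraries.

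In cluster 10, with 113 Foxp3-positive and 290 negative cells of nearly the same depth (medians of 1653 and 1657 UMIs), the odds ratios of Ikzf2 (1.91, interval 1.19 to 3.05), Izumo1r (1.85, 1.18 to 2.91) and Klrg1 (2.00, 1.16 to 3.45) lay above 1. After thinning they were 1.27, 1.67 and 1.69, with intervals that held 1. The other 5 held 1 at both depths. In the other T cell-like clusters, 38 Foxp3-positive cells were set against 3388 negative ones. The odds ratios there were pooled over libraries without a split by cluster, so they do not separate co-detection from cluster or depth. Of the 38 cells, 17 lay in the cycling cluster 9 (median 4852 UMIs per cell) and 13 in cluster 3. Median depth was 3337 UMIs in the 38 cells and 1959 over all cells of those clusters. Ikzf2 was detected in 65.8% against 10.5%, with an odds ratio of 13.6 (6.82 to 27.2), and Klrg1 in 36.8% against 6.23% (14.2, 6.91 to 29.3). All 8 intervals lay above 1. Thinning left 11 positive cells, of which 5 held Ikzf2, 3 Izumo1r, 2 Klrg1, 1 Itgae, 1 Il2ra and none Ccr8 or Il10, and the intervals of Il2ra (2.65, 0.33 to 21.2) and Capg (1.72, 0.51 to 5.80) then held 1.

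**Figure D5:**
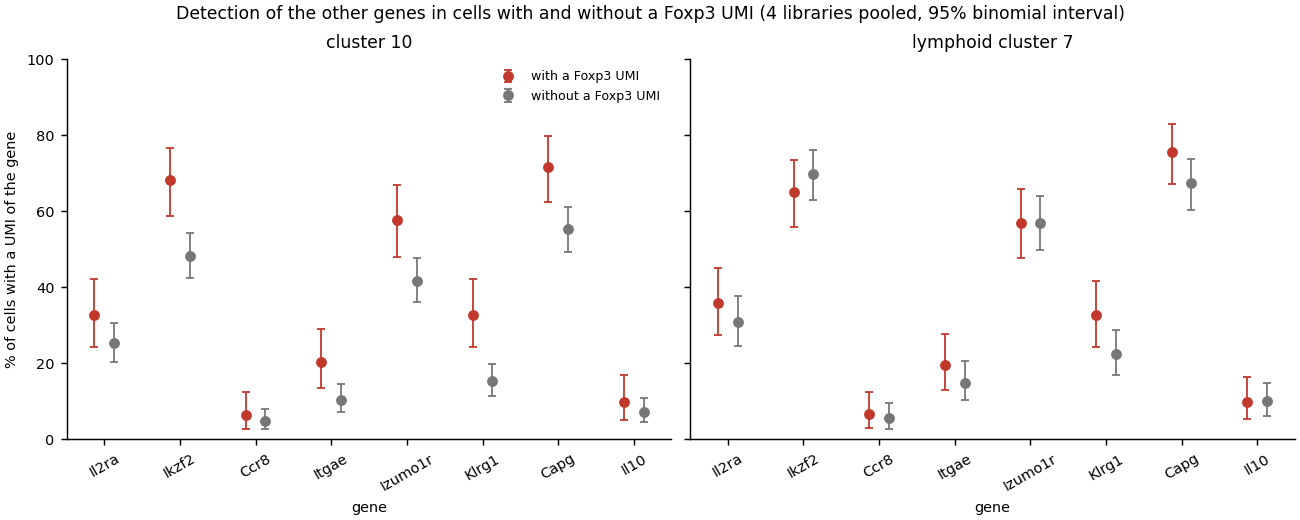
Percentage of cells with a UMI of each of 8 genes, in cells with and without a Foxp3 UMI, in cluster 10 and in lymphoid cluster 7; 4 libraries pooled, bars are exact 95% binomial intervals. In cluster 10 Foxp3-positive cells are higher for Ikzf2 (68.1% against 48.3%), Izumo1r (57.5% against 41.7%) and Klrg1 (32.7% against 15.2%), and in lymphoid cluster 7 Izumo1r stands at 56.9% in both.

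Cells without a Foxp3 UMI could hold several of the other genes. At least 2 of the 7 genes other than Foxp3 and Capg were detected in 72.6% of Foxp3-positive and 44.8% of Foxp3-negative cluster 10 cells, in 66.3% of Foxp3-negative lymphoid cluster 7 cells and in 73.7% of the 38 Foxp3-positive T cells outside cluster 10. The share was 5.46% over the other T cell-like cells, 1.51% in cluster 5 and 0.116% in macrophage-like cells. Thinned to 1000 UMIs, these shares were 53.9%, 35.1%, 56.4%, 24.3%, 1.37%, 0.226% and 0.0170%. Those 38 cells had a median of 3337 UMIs, against 1653, 1657 and 1368 for the groups before them.

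Foxp3-positive and Foxp3-negative T cells were also compared over all genes, within each library. All 9 genes were at least 2-fold higher in the positive cells with the libraries summed, beside 11.3% of all genes measured, and none was lower (10.2%). For Foxp3 itself this is how the cells were split. Of the other 8, Izumo1r (log2 ratio 3.17), Itgae (3.85), Il10 (2.66), Klrg1 (2.57), Ikzf2 (2.49) and Il2ra (2.05) were at least 4-fold higher, and Ccr8 (1.5) and Capg (1.41) less. The control library gave 95 of the 151 positive cells, and the summed ratios lean on it. The comparison was not split by cluster. Cluster 10 held 113 of the 151 positive cells and 290 of the 3678 negative ones. These ratios, and the ranking and lists below, therefore also hold the difference between cluster 10 and the other T cell-like clusters. Within libraries Capg stood at 0.95 in control and 0.41 under anti-CTLA-4, below 2-fold. No direction was observed where the positive cells held no UMI: for Ccr8 and Il10 under anti-CTLA-4 and in the combination, and for Itgae under anti-CTLA-4. Izumo1r, Ikzf2, Il2ra and Klrg1 were at least 2-fold higher in each of the 4 libraries. For Il2ra and Klrg1 this rested on few cells. Each was detected in 23.1% of the 13 positive cells under anti-CTLA-4 and in 15% of the 20 in the combination. Their ratios under anti-CTLA-4 were 1.15 and 1.12.

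Among 3888 genes with at least 50 UMIs in every library, 559 were higher in the positive cells of all 4 libraries and 340 were lower in all 4. The 10 with the largest weakest ratio were Izumo1r (2.52 in its weakest library), Arl5a (2.07), Il4ra (1.99), the tetraspanin Cd81 (1.87), Ikzf2 (1.81), Ass1 (1.77), the costimulatory receptor Tnfrsf4 (1.64), Vrk1 (1.63), H1f0 (1.40) and Iigp1 (1.35). At the other end stood genes of cytotoxic lymphocytes: Klrc1 (−2.89 in its weakest library), Klrc2 (−2.71), Cd8a (−2.63), Klrk1 (−2.61), Gzmf (−2.41), Klrd1 (−2.34) and Gzma (−2.25), with Ccl1 (−2.35), BC018473 (−1.97) and Serpinb9 (−1.80). Ccl1 had no UMI in any positive cell and Gzmf had 1, so the 0.5 counts added to each side set their values. Arl5a, Vrk1, H1f0 and Iigp1 rested on 3 to 4 UMIs in the positive cells of the combination library.

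4 lists of related genes were read in the same comparison, each by its count and its median, beside a median of 0.10 over all genes and beside 11.3% of all genes at least 2-fold higher and 10.2% lower. Of 18 measured genes of regulatory T cell surface and suppression, 10 were at least 2-fold higher and none lower (median 1.24). The named ones were Tnfrsf4 (2.06), Tnfrsf9 (1.99 summed, −1.31 in the combination), Ctla4 (1.93) and Tnfrsf1b (1.84). Of 20 transcription factors, 5 were higher and 2 lower (median 0.50): Ikzf4, a relative of Helios, stood at 3.16, Maf at 1.83, Prdm1 at 1.51 (−0.54 under anti-PD-1) and Tcf7, a factor of naive and memory T cells, at −2.0 (0.34 under anti-PD-1, from 4 UMIs in all positive cells).

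Of 12 genes of IL-2 and its signalling, 2 were higher and 1 lower (median 0.25), near the shares over all genes. Socs2 stood at 2.26, Socs3 at 1.79 (−1.80 under anti-CTLA-4), Cish at 0.80 and the survival gene Bcl2 at −1.96. Of 12 ligands and partners of the 9 genes, 4 were higher and 2 lower (median 0.48). Among these the chemokine receptor Ccr4 stood at 2.71, Itgb7, the beta chain that pairs with the Itgae product, at 1.73, and Cxcr6 at −2.15.

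The genes whose mean levels over the 19 clusters were most like those of Foxp3 (Pearson r of log2(CPM + 1), 10242 genes with at least 100 UMIs ranked) included Rln3 (0.94), Sv2c (0.85), Igsf23 (0.85), Top1 (0.84), Ccr8 (0.83), Cnih2 (0.83), Sp3 (0.83), Mettl21a (0.81) and Izumo1r (0.81). Il10 (0.78), Ikzf2 (0.77) and Il2ra (0.68) followed at ranks 17, 20 and 102. Klrg1 (0.44), Itgae (0.25) and Capg (0.01) stood at ranks 1508, 4076 and 6837. These values describe 19 cluster means that share 4 libraries, and Foxp3 is near 0 in most of them.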

How the data were processed

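Each of the 4 libraries has a matrix of UMI counts, whole numbers without normalization, as the authors deposited it, and 2 tables list cells with cluster numbers. The submitters' processing notes name Cell Ranger, Seurat and mm10; neither versions nor filters are given there. Samples were grouped by the labels' antibody. Only listed cells were used, with no further filter; 127 barcodes were not listed. No doublet caller was run, and leaving out the 3% deepest cells or cells with UMIs of 2 or more macrophage genes was tried instead.

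Counts were summed per library and set of cells. Intervals are exact: Clopper-Pearson for shares, Poisson for levels, conditional binomial for ratios, at 95%. Scripts ran in Python 3.11.15 with numpy 2.4.6, scipy 1.17.1, pandas 2.3.3 and matplotlib 3.10.9, and were tested on simulated data. Thinning drew 1000 UMIs per cell (seed 1). Positions are from GENCODE vM21. Clusters were named only from marker lists; names may differ from the authors' own, and 4 of 7 T cell markers and 0 of 4 gamma-delta markers were in the gene table. All 9 genes are named, with 4 per list by the size of their Foxp3-positive over negative ratio (at least 20 UMIs), 10 at each end of the ranking by weakest library, and 10 by likeness; 2 of the genes so chosen are not reported here. The members and lists were chosen with earlier results of these data known.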

Additional observations from a re-analysis of the deposited data

Results flagged for a closer look

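Klrg1 was lower in the treated libraries in cluster 10, by log2 ratios to control of −3.31, −3.59 and −2.66 (PD-1 antibody, CTLA-4 antibody, both), and higher in 2 other clusters. In the NK cell-like cluster 5 the ratios were 1.35, 1.40 and 1.78, and in cluster 14 they were 0.57, 0.89 and 1.15. All of these intervals excluded 0, and the difference between clusters was not tested.

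The 127 barcodes that the authors' table does not list entered no comparison. They held 8 UMIs of Foxp3, 98 of Il2ra, 91 of Ikzf2, 9 of Ccr8, 28 of Izumo1r, 288 of Klrg1, 1389 of Capg and 21 of Il10, each above the 3 counts that a count of 0 allows.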

How the results depend on the processing

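No paired analysis was possible because each group had 1 library. The lower Foxp3 level, Foxp3-positive share and cluster 10 share in each treated library kept their direction under all alternatives run. Gating on Cd3 genes in place of clusters moved the Foxp3 log2 ratio with anti-CTLA-4 to −1.75, outside its counting interval. Taking lymphoid cluster 7 as a share of lymphoid-table cells, which changes the cluster and the denominator at once, moved the share ratios to −1.32, −2.28 and −1.66 (in the order used above). Lymphoid cluster 7 in place of cluster 10 reversed Foxp3 in all 3 comparisons (0.30, 0.11, 0.39), Ikzf2 in all 3 (0.26, 0.74, 0.18) and Izumo1r with anti-PD-1 (0.49); it also moved 7 other ratios outside their intervals, among them Klrg1 with anti-PD-1 (from −3.31 to −1.59), and the mean of per-cell CPM moved 4, all of Ikzf2 or Izumo1r. The cells differ by construction, and no other cause was tested. Within lymphoid cluster 7 the Ikzf2 ratio with anti-CTLA-4 reversed without the top cell of each library (−0.057) and in the cells shared with cluster 10 (−0.23), both alternatives chosen after seeing the data. Median-of-ratios scaling shifted all genes of lymphoid cluster 7 by 0.13 on the log2 scale with anti-CTLA-4 and moved no ratio outside its interval. At 12 to 28 Foxp3 UMIs per treated library in lymphoid cluster 7, the intervals of the 3 Foxp3 ratios ran from −0.89 to 1.00 on the log2 scale, and changes within them were not detectable at this depth.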

Other observations

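Genes beside the 9 were read in the same way within lymphoid cluster 7. Of the measured regulatory T cell surface and suppression genes, 1 of 14, 4 of 13 and 2 of 14 were at least 2-fold lower than in control, beside 10.3%, 16.2% and 13.2% of all genes, with median log2 ratios of −0.34, −0.77 and −0.69. Gzmb, a cytotoxic granule protease that activated regulatory T cells can express, was 3565, 2710, 1879 and 744 CPM in the order of libraries used above, with a log2 ratio of −2.26 (−2.66 to −1.89) for the last. Lgals1, which encodes galectin-1, was 4402, 3895, 3378 and 2156 CPM. The chemokine receptor Cxcr3 was 228, 368, 452 and 545 CPM, higher in each treated library, with log2 ratios of 0.69 (0.01 to 1.32), 0.99 (0.19 to 1.71) and 1.26 (0.71 to 1.79). Id2 was lower in all 3, at 990 CPM in control against 508 to 626 CPM.

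Ctla4 was 948, 613, 404 and 954 CPM. These genes were picked from the 4 lists after their values were seen, the 3 ratios share the control library, and none was tested.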
